A study of Homo sapiens with 6 samples.

Results

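Small nucleolar RNAs (snoRNAs) and small Cajal body RNAs (scaRNAs) were followed across 3 human leukaemia cell lines on 6 arrays. Features were taken by symbol, where the platform's annotation gave a single gene symbol that starts with SNORA, SNORD or SCARNA followed by a number, leaving out SNORD113, SNORD114 and host gene symbols. Of 240 such features, 186 reached a log2 level of 5 on at least 2 of the 6 arrays. These 186 members, out of 67528 features on the array, carry 167 symbols and comprise 64 SNORA, 103 SNORD and 19 SCARNA features. The rule uses symbols and level. Because 2 arrays at the level are enough, it also admits features seen in a single line, and the 16 SNORD116 features entered through MV4-11 alone.

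The shRINF group held 3 arrays, of K562, UT7-5.3 and MV4-11 cells given a lentiviral vector with an shRNA against CXXC5 (also called RINF). The shcontrol group held 3 arrays of the same lines given the vector with a control sequence. All cells were proliferating, and each line and shRNA gave a single array, so that the cell line is the replicate and no line has a second culture. K562 is a chronic myeloid leukaemia line with erythroid features, UT7-5.3 a cytokine-dependent megakaryoblastic line grown with GM-CSF, and MV4-11 an acute leukaemia line with monocytic features. Neither the sequence of either shRNA nor the time since transduction is stated in the labels.

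Most human snoRNAs lie in introns and are released when the host transcript is spliced and its intron trimmed. Box C/D RNAs (SNORD) bind fibrillarin and guide ribose methylation, box H/ACA RNAs (SNORA) bind dyskerin and guide pseudouridylation, and scaRNAs direct the same changes on spliceosomal RNAs in Cajal bodies. A few, such as U3 (SNORD3), act in the cleavage of the ribosomal RNA precursor, and others have no known target on ribosomal or spliceosomal RNA.

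CXXC5 stood at 7.95, 7.76 and 7.95 on the shRINF arrays of K562, UT7-5.3 and MV4-11, against 8.40, 8.42 and 8.58 on the shcontrol arrays, on the deposited log2 scale. It was lower with its shRNA in each line, with no overlap between the groups, although limma's adjusted p over all features tested was 0.272. The lines were set against marker lists, which were matched in part. The erythroid factor GATA1 was between 9.81 and 10.45 in K562 and UT7-5.3 and at 5.62 and 5.94 in MV4-11. FLT3, a receptor of myeloid progenitors, was at 9.61 and 9.88 in MV4-11 and between 3.38 and 3.5 elsewhere, and the platelet integrin ITGA2B was highest in UT7-5.3 at 8.21 and 8.79. Of 5 erythroid genes measured, 3 were called higher in K562 and in UT7-5.3 than in MV4-11. The platelet genes PF4 and GP9 were between 5.42 and 5.92 on all arrays, with no excess in UT7-5.3, and the myeloid integrin ITGAM was higher in UT7-5.3, at 8.01 and 8.47, than in MV4-11, at 6.66 and 7.36. The monocyte marker CD14 and the platelet gene PPBP stayed below 5 on all arrays. The 2 arrays of each line had a Pearson correlation over all features of 0.993 to 0.997, and arrays of different lines one of 0.930 to 0.959.

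By the RefSeq table of assembly GRCh38.p14, 158 of the 167 symbols lie inside another gene and 9 lie in none. Their 112 hosts hold between 1 and 16 of them, with 16 in SNHG14, 4 in SNHG17 and 3 each in NCL, C19orf48P, RPL4, NOP58 and ZFAS1. Protein-coding hosts hold 115 symbols and lncRNA hosts 39, while 22 symbols lie in ribosomal protein genes. Transcripts of ribosomal protein and translation factor genes open with a C followed by a run of pyrimidines, and some snoRNA hosts are known to share this start. A C followed by 4 letters that are each C or T stood at the annotated start, on the sense strand, in 20 of the 90 hosts in the RefSeq promoter table (22.2%), against 1429 of all 35116 promoters (4.1%). Among the 82 hosts that are not ribosomal protein genes the count was 15 (18.3%). Each host gave 1 promoter and holds an RNA chosen by its level, while the comparison takes every promoter in the table, whatever the level of its gene. For a C and 6 pyrimidines anywhere between 10 bases before and 17 from the start, the contrast was smaller, 26 of 90 hosts (28.9%) against 13.5% of all promoters. Where the letters are absent, this says only that they are not at the start the table gives.

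The starts of some hosts whose snoRNAs are described below are shown, 15 bases before and 15 bases from the annotated start. The sequences run 5′ to 3′ on the gene's strand, with a pyrimidine run that opens with C at the start in capitals. They are RefSeq sequence of GRCh38.p14. Hosts with such a run are over-represented in this selection. Most hosts described below have no such run at the start, among them CWF19L1, ZBED3, TCP1, KANSL2 and NSD2. RPL12 (chr9:127451392-127451421, minus strand) holds SNORA65, TPT1 (chr13:45341169-45341198, minus) holds SNORA31, and RPS13 (chr11:17077653-17077682, minus) holds SNORD14A and SNORD14B. EP400 (chr12:131949927-131949956, plus) holds SNORA49, SNHG4 (chr5:139274086-139274115, plus) holds SNORA74A, and NCAPD2 (chr12:6494087-6494116, plus) holds SCARNA10. CHD8 (chr14:21437261-21437290, minus), with SNORD8 and SNORD9, has no such run.
RPL12: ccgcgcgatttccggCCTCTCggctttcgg
TPT1: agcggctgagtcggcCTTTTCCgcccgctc
RPS13: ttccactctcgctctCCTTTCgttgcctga
EP400: ccgcgccgccgcttcCTCCCgccggggccc
SNHG4: ctcggctcccggctgCCCTTTCCCCTCCgg
NCAPD2: gcacgcgtgttttttCCTTTTCatttcagc
CHD8: gcgggcaggagcatcaggttaggttgcgca

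Promoter windows follow for the lncRNA hosts of SNORD116 and SNORD93, the members with the widest differences between lines. They span 250 bases before and 50 after the annotated start, with each CG dinucleotide in capitals. Only this start is shown for each gene, and whether the transcripts that hold these snoRNAs begin there was not tested. SNHG14 (chr15:24823358-24823657, plus strand) is the host of the SNORD116 RNAs, and its window holds 9 CG. SNHG26 (chr7:22853990-22854289, plus strand) is the host of SNORD93, and its window holds 28 CG. The median over all promoters in the table was 14, and 58.4% of them held at least 9 and 26.2% at least 28.
SNHG14: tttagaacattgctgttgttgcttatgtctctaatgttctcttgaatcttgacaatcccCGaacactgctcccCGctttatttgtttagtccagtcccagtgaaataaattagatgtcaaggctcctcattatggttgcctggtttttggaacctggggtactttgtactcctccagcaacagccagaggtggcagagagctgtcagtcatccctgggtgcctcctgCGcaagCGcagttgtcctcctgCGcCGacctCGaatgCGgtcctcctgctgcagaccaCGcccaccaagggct
SNHG26: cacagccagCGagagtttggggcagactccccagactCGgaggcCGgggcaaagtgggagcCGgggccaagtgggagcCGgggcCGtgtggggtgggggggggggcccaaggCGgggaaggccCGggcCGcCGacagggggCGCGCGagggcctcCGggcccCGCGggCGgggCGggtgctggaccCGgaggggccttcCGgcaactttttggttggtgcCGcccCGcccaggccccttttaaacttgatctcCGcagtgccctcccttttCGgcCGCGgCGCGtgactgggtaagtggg

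The median mean level over the 6 arrays was 7.55 for the members and 6.69 for all 16215 features with 1 symbol past the same level. On each array the median member lay above 84.3% to 89.1% of all features. The box C/D class had a median of 7.90 and ran between SNORD116-13 at 3.26 and SNORD13 at 13.11. SNORD13 (U13), which pairs with the small-subunit rRNA and is needed for an acetylation there, stood between 13.04 and 13.19 on all 6 arrays and had the highest signal of any member. The box H/ACA class had a median of 7.53, between SNORA30 at 4.90 and SNORA48 at 11.56, and the scaRNAs a median of 7.09, between SCARNA1 at 5.04 and SCARNA12 at 10.06. These are probe signals on a log2 scale, which depend on the probes and do not rank RNAs by abundance, and a feature's probes also read any intron RNA that still contains the snoRNA.

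Of the members, 164 reached the level in all 3 lines, 5 in 2 lines and 17 in a single line, of which 16 were SNORD116 features seen in MV4-11. SNORA30, SNORD103C and SCARNA11 lay just inside the rule, with a second highest array at 5.09, 5.14 and 5.18. SNORD111B, SNORA35 and SCARNA23 lay just outside it, at 4.94, 4.79 and 4.74. Below the level were 54 features, among them all 31 SNORD115 features, at 2.01 to 2.99. Some members stand for a single sequence several times, since the array holds features for alternative MHC haplotypes. The 7 features of SNORA38 have 2 sets of values, the 8 of SNORD117 a single set, the 7 of SNORD32B 2 sets, and SNORD3B-1 and SNORD3B-2 are identical, so that the 186 members hold 168 distinct profiles.

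**Figure D1:**
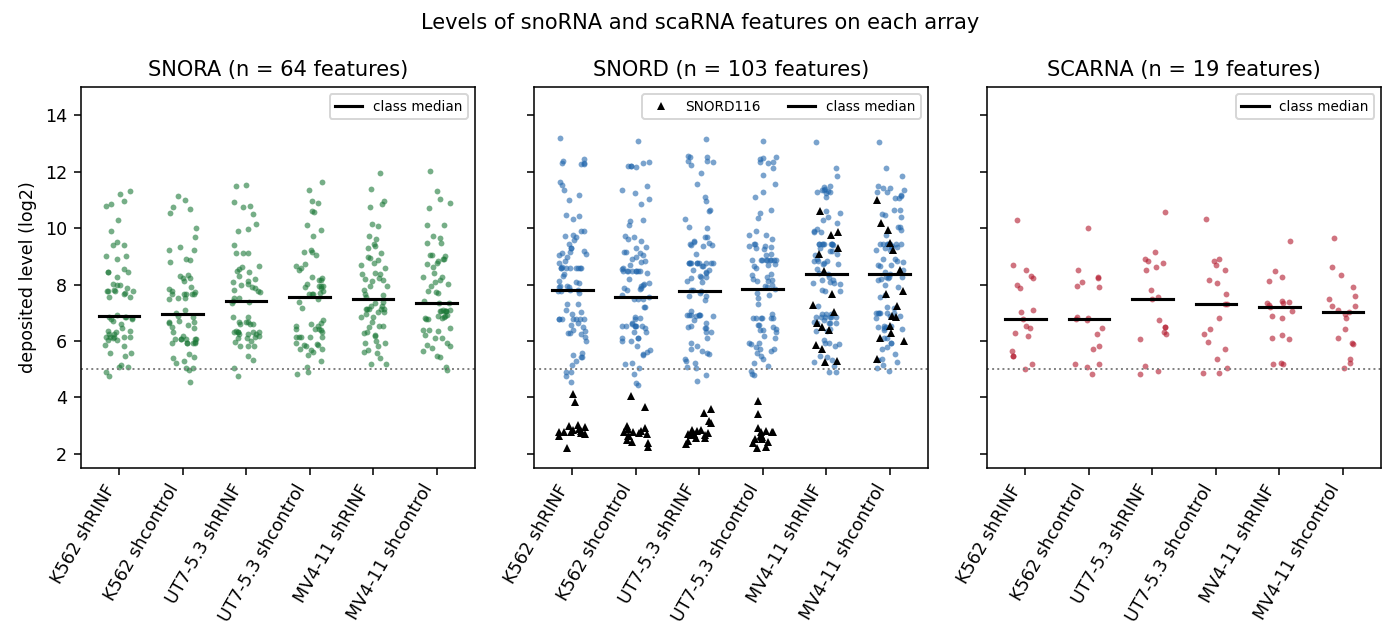
Deposited log2 level of each member on each array, by class, with a bar at the class median and a dotted line at the level of 5 used to choose features. Triangles mark the 16 SNORD116 features, at 4.10 or lower on the K562 and UT7-5.3 arrays and at 5.24 or higher on both MV4-11 arrays.

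SNORD116 is the family of box C/D RNAs in the imprinted region of chromosome 15, transcribed from the paternal chromosome within the long SNHG14 transcript, and loss of that region underlies Prader-Willi syndrome. The family has no known target on ribosomal RNA. The median over its 16 member features was 2.78 on the shRINF array of K562, 2.72 on that of UT7-5.3 and 7.15 on that of MV4-11, against 2.74, 2.64 and 7.46 on the shcontrol arrays. The highest value of these 16 in K562 was 4.10 and in UT7-5.3 was 3.86, and the lowest in MV4-11 was 5.24. None of the 16 overlapped between MV4-11 and the other lines, which follows from their passing the level rule through MV4-11 alone. The medians in K562 and UT7-5.3 were below the lower quartile of all features on those arrays, 3.41 to 3.42, and the files hold no detection calls by which such a signal could be told from background.

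SNORD116-15 had the highest signal of the family, with 3.83 and 3.66 in K562, 3.43 and 3.41 in UT7-5.3 and 10.62 and 10.99 in MV4-11 (shRINF and shcontrol in each line). SNORD116-24 had 2.68 and 2.47 in K562, 2.66 and 2.42 in UT7-5.3, and 9.87 and 9.94 in MV4-11. SNORD116-13 had the lowest, with 2.19 and 2.24 in K562, 2.33 and 2.20 in UT7-5.3, and 5.24 and 5.37 in MV4-11. For each of the 3, both MV4-11 arrays were above the other 4 with a wide gap, and the copies of the family are alike enough that probes may read more than one.

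The K562 minus MV4-11 difference had a median of -4.40 over the 16 features, from -7.33 to -3.04, and the UT7-5.3 minus MV4-11 difference a median of -4.64, from -7.38 to -3.04. Signals of about 4 or lower are treated as floor, so the sizes of these differences are lower bounds. Because the features passed the level rule through MV4-11 alone, they had to differ, and limma's calls for all 16 restate the rule. The other 3 single-symbol features of the family were low in all lines, at 2.39 to 3.96. UBE3A, the neighbouring gene of the region that is read from the opposite strand, stood at 9.06 and 9.03 in K562, 8.81 and 8.53 in UT7-5.3 and 9.05 and 9.01 in MV4-11, and did not share the pattern. PWAR1, another transcript of the region, had 3.41 and 4.05 in MV4-11 and between 2.64 and 2.81 in the other lines.

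**Figure D2:**
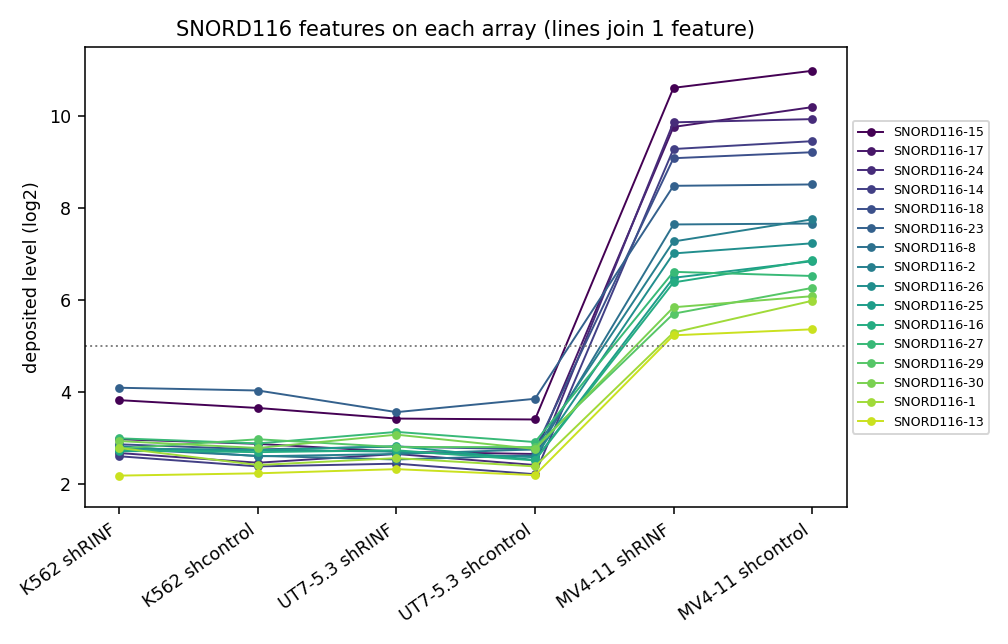
Deposited log2 level of the 16 SNORD116 features on the 6 arrays, each line joining the values of a feature, with a dotted line at 5. All 16 are low in K562 and UT7-5.3 and lie between 5.24 and 10.99 in MV4-11, where 15 are lower on the shRINF array.

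Between lines, a member was called where limma's adjusted p over all 16215 features was under 0.05 and the difference was at least 1 log2 unit. In at least 1 of the 3 pairs of lines, 55 members (29.6%) were called, against 22.7% of all features tested. Without SNORD116 the count was 39 of 170 features (22.9%), which is close to that background. The 39 features carry 35 symbols, and 19 of these were called in more than 1 pair.

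For K562 against UT7-5.3, 8 members were called (4.3%), 2 higher (background 4.05%) and 6 lower (background 6.1%), against 10.1% of all features. The median difference of the members was -0.14, against -0.005 over all features. Without a minimum size, 67 members (36%) passed the adjusted p, against 41.5% of all features. For K562 against MV4-11, 43 members were called (23.1%), 8 higher (background 6.91%) and 35 lower (background 8.25%), against 15.2% of all features, and 120 passed without a minimum size (background 50.3%). Of the 35 that were lower, 16 were SNORD116, and several were SNORA38 features that share the value -1.005, at the minimum size. The 8 that were higher include SNORD3B-1, SNORD3B-2 and SNORD3D, near-identical copies of U3. Without SNORD116, 27 of 170 were called (15.9%). The median difference was -0.32, against 0.03 over all features, and -0.275 without SNORD116. For UT7-5.3 against MV4-11, 39 members were called (21%), 12 higher (background 7.17%) and 27 lower (background 6.48%), against 13.6% of all features. Without SNORD116 it was 23 of 170 (13.5%), and without a minimum size 120 members (background 48.2%). The 12 that were higher include all 5 features of U3, which stand for a single RNA. The median difference was -0.19 over the members, -0.12 without SNORD116, and 0.04 over all features.

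For each line, the members called higher or lower than both other lines were counted. MV4-11 was called higher than both other lines for 24 members (12.9%), against 4.59% of all features, and for 8 of the 170 outside SNORD116 (4.71%). It was called lower than both for 7 members (3.76%), against 2.95% of all features. Of these 7, SNORD3B-1, SNORD3B-2 and SNORD3D are near-identical copies of U3 and stand for a single RNA. K562 was called lower than both for 3 members (1.61%; background 2.49%) and UT7-5.3 for a single one (0.538%; background 0.894%). Neither K562 nor UT7-5.3 was called higher than both others for any member, by limma at these thresholds, where the background was 2.28% and 3.03%.

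Among box C/D RNAs, SNORD93, a guide that lies in the lncRNA gene SNHG26, had the widest difference outside SNORD116. It stood at 9.59 and 9.70 in K562, 5.83 and 5.92 in UT7-5.3 and 10.53 and 10.64 in MV4-11 (shRINF and shcontrol). UT7-5.3 was low on both arrays, and no line overlapped with another. The K562 minus UT7-5.3 difference was 3.77 ± 0.10 (SE; limma adjusted p = 1.22e-10), and the UT7-5.3 minus MV4-11 difference was -4.71 ± 0.10 (adjusted p = 2.62e-11). Its host was not named by a single feature, so the level of SNHG26 itself was not compared.

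U3 is the abundant box C/D RNA that base-pairs with the ribosomal RNA precursor for its early cleavages. It is read here by 5 features for near-identical gene copies (SNORD3A, SNORD3B-1, SNORD3B-2, SNORD3C and SNORD3D). The probe sequences were not available, and probes may read more than 1 copy. SNORD3A had 12.45 and 12.34 in K562, 12.55 and 12.50 in UT7-5.3 and 11.49 and 11.35 in MV4-11. SNORD3B-1 had 12.28 and 12.19 in K562, 12.40 and 12.35 in UT7-5.3, and 11.28 and 11.08 in MV4-11. MV4-11 was lower on both arrays than every array of the other lines for all 5 features. The UT7-5.3 minus MV4-11 difference was called for all 5, between 1.1 and 1.2. The K562 minus MV4-11 difference was called for SNORD3B-1 and SNORD3B-2 at 1.06 ± 0.10 and for SNORD3D at 1.01 ± 0.10 (SE; limma adjusted p = 4.75e-06 for the first pair and 5.65e-06 for the last). These 3 calls sit at the minimum size of 1, and their differences were 0.904 to 0.992 after quantile normalization or cyclic loess and 0.99 to 0.993 without the MV4-11 shcontrol array.

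U14 (SNORD14), which in yeast is needed for processing of the small-subunit rRNA as well as its methylation, differed by copy and host. SNORD14B, in RPS13, had 7.95 and 7.86 in K562, 8.09 and 7.98 in UT7-5.3 and 9.09 and 9.23 in MV4-11, and was called higher in MV4-11 than in K562 (K562 minus MV4-11 -1.25 ± 0.11, SE; limma adjusted p = 1.70e-06). SNORD14A, in the same gene, had 8.75 and 8.59 in K562, 8.67 and 8.67 in UT7-5.3 and 8.83 and 8.90 in MV4-11. In HSPA8, SNORD14D had 9.29 and 9.15, 9.50 and 9.29, and 8.91 and 8.82 in the 3 lines in that order, and SNORD14E had 7.78 and 7.49, 8.41 and 8.11, and 7.78 and 7.57. RPS13's pair therefore had a called and an uncalled member, and neither HSPA8 member was called in any pair of lines.

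SNORD8 and SNORD9 lie in CHD8, a chromatin remodeller. SNORD8 had 7.79 and 7.48 in K562, 8.78 and 8.88 in UT7-5.3 and 8.05 and 8.15 in MV4-11. SNORD9 had 8.13 and 7.79 in K562, 9.10 and 9.04 in UT7-5.3, and 8.41 and 8.45 in MV4-11. Both were highest in UT7-5.3 on both of its arrays. The K562 minus UT7-5.3 difference was -1.195 ± 0.12 for SNORD8 and -1.11 ± 0.12 for SNORD9 (SE; limma adjusted p = 1.17e-05 and 1.37e-05). Without the K562 shcontrol array the differences were -0.99 and -0.945, short of 1, and without the UT7-5.3 shcontrol array the adjusted p of SNORD8 was 0.0501. CHD8 itself had 8.51 and 8.57 in K562, 9.11 and 9.26 in UT7-5.3 and 8.63 and 8.65 in MV4-11, a K562 minus UT7-5.3 difference of -0.645 ± 0.10 (SE; limma adjusted p = 3.55e-04), so that host and guest were highest in the same line.

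Other box C/D members were called closer to the floor. SNORD105, in PPAN, had 4.54 and 4.50 in K562, 5.94 and 5.57 in UT7-5.3 and 4.91 and 5.05 in MV4-11, a K562 minus UT7-5.3 difference of -1.24 ± 0.13 (SE; limma adjusted p = 1.15e-05). SNORD7 had 5.99 and 6.01 in K562, 4.58 and 5.23 in UT7-5.3 and 5.31 and 5.31 in MV4-11, and its K562 minus UT7-5.3 difference of 1.10 ± 0.15 (SE) was 0.775 without the UT7-5.3 shRINF array and 0.943 without the K562 shRINF array. The GAS5 guests SNORD75 and SNORD78, which come from an lncRNA gene that responds to growth arrest, were lowest in UT7-5.3, at 8.53 and 8.59 for SNORD75 and at 10.32 and 10.54 for SNORD78, and neither was called.

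The box H/ACA RNAs called between K562 and MV4-11 were mostly higher in MV4-11. SNORD116 takes all the places for members higher in MV4-11 under the rule for naming, so SNORA65, SNORA12, SNORA53, SNORA46, SNORA50A, SNORA49, SCARNA4 and SCARNA21 were picked out after their values were seen. For K562 against MV4-11, 16 of 64 SNORA features were called (25%, against 15.2% of all features), 14 of them lower in K562 (21.9%, against 8.25%). Of these 14, 5 are SNORA38 features with identical values and stand for a single RNA. SNORA65, a pseudouridine guide in RPL12, had 8.43 and 8.34 in K562, 8.13 and 8.67 in UT7-5.3 and 10.85 and 10.88 in MV4-11. Both MV4-11 arrays were far above the rest, and K562 and UT7-5.3 overlapped. The K562 minus MV4-11 difference was -2.48 ± 0.14 and the UT7-5.3 minus MV4-11 difference -2.46 ± 0.14 (SE; limma adjusted p = 4.31e-08 and 5.57e-08). RPL12 lay at 10.465, 10.52 and 10.725 on average in K562, UT7-5.3 and MV4-11, a far smaller spread than that of its guest.

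SNORA12, in CWF19L1, had 6.24 and 5.95 in K562, 6.83 and 6.52 in UT7-5.3 and 8.39 and 8.76 in MV4-11, a K562 minus MV4-11 difference of -2.48 ± 0.15 (SE; limma adjusted p = 8.28e-08). SNORA53, in the phosphate carrier gene SLC25A3, had 4.88 and 5.02 in K562, 5.03 and 4.90 in UT7-5.3 and 6.5 and 6.85 in MV4-11, a difference of -1.725 ± 0.12 (SE; adjusted p = 3.19e-07). Both were high in MV4-11 alone. Their hosts differed by -0.165 (CWF19L1) and by less than 0.2 (SLC25A3, at 9.70 in K562 and 9.86 in MV4-11 on average). SNORA46 and SNORA50A, both in the deadenylase scaffold gene CNOT1, were high in the same line. SNORA46 had 6.03 and 6.06 in K562, 6.23 and 5.86 in UT7-5.3 and 7.22 and 7.09 in MV4-11. SNORA50A had 7.79 and 7.67 in K562, 7.89 and 7.71 in UT7-5.3, and 9.13 and 9.05 in MV4-11. Both were called higher in MV4-11 than in either other line, while CNOT1 averaged 10.65, 10.48 and 10.63 in the 3 lines.

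In K562, SNORA47, SNORA20 and SNORA31 were lower than in both other lines. SNORA47, in ZBED3, had 6.82 and 6.47 in K562, 8.54 and 8.74 in UT7-5.3 and 9.37 and 9.05 in MV4-11, so that K562 lay well below the rest (K562 minus MV4-11 -2.565 ± 0.14, SE; limma adjusted p = 2.30e-08). SNORA31, in TPT1, the gene of a translationally controlled tumour protein, had 6.77 and 6.89 in K562, 7.92 and 7.94 in UT7-5.3 and 8.86 and 8.84 in MV4-11. Its 3 lines were apart from each other, and TPT1 itself followed the same order, with averages of 9.375, 10.06 and 10.43. The K562 minus MV4-11 difference was -2.02 ± 0.10 for SNORA31 (SE; adjusted p = 1.55e-08) and -1.055 ± 0.10 for TPT1 (SE; adjusted p = 4.09e-06). SNORA20, in the chaperonin gene TCP1, had 7.99 and 7.92 in K562, 9.11 and 9.21 in UT7-5.3 and 9.31 and 9.48 in MV4-11.

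A few box H/ACA RNAs were lower in MV4-11. SNORA71C, in SNHG17, had 10.84 and 10.67 in K562, 10.78 and 10.89 in UT7-5.3 and 9.60 and 9.46 in MV4-11 (K562 minus MV4-11 1.225 ± 0.11, SE; limma adjusted p = 2.40e-06). The 4 members in SNHG17 had K562 minus MV4-11 differences between 0.16 and 1.23, and SNORA71C was the 1 called. The smallest was that of SNORA71B, whose arrays overlapped between these lines, at 8.55 and 8.23 in K562 and 8.21 and 8.25 in MV4-11. SNORA2A, in KANSL2, rested on single arrays. SNORA2A had 6.91 and 6.85 in K562, 6.86 and 7.89 in UT7-5.3 and 6.0 and 5.75 in MV4-11, so that the UT7-5.3 arrays were about as far apart as the lines. Its UT7-5.3 minus MV4-11 difference of 1.5 ± 0.23 (SE; limma adjusted p = 2.06e-04) was 0.908 without the UT7-5.3 shcontrol array. Its K562 minus MV4-11 difference of 1.005 was 0.78 without the K562 shRINF array and 0.637 without the MV4-11 shcontrol array, and neither call passed with robust eBayes (adjusted p = 0.0567 and 0.134).

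Among the scaRNAs, SCARNA22 (also called ACA11, in the histone methyltransferase gene NSD2) had the widest difference. It stood at 8.23 and 8.08 in K562, 8.90 and 8.82 in UT7-5.3 and 7.21 and 6.81 in MV4-11. UT7-5.3 was highest and MV4-11 lowest with no overlap, and the UT7-5.3 minus MV4-11 difference was 1.85 ± 0.11 (SE; limma adjusted p = 8.81e-08). NSD2 averaged 8.08, 8.01 and 7.785 in the 3 lines. SCARNA9L, on chromosome X in EIF1AX, had 8.53 and 8.28 in K562, 8.53 and 8.04 in UT7-5.3 and 7.36 and 6.95 in MV4-11, and was called lower in MV4-11 than in both others. SCARNA4, in KHDC4, ran the other way, with 6.27 and 5.80 in K562, 6.08 and 5.95 in UT7-5.3 and 7.06 and 7.10 in MV4-11. In each MV4-11 comparison 5 of 19 scaRNAs were called (26.3%), against 15.2% of all features for K562 and 13.6% for UT7-5.3. For K562 against UT7-5.3 0 were called (background 10.1%), and 8 passed limma's adjusted p without a minimum size (42.1%; background 41.5%).

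**Figure D3:**
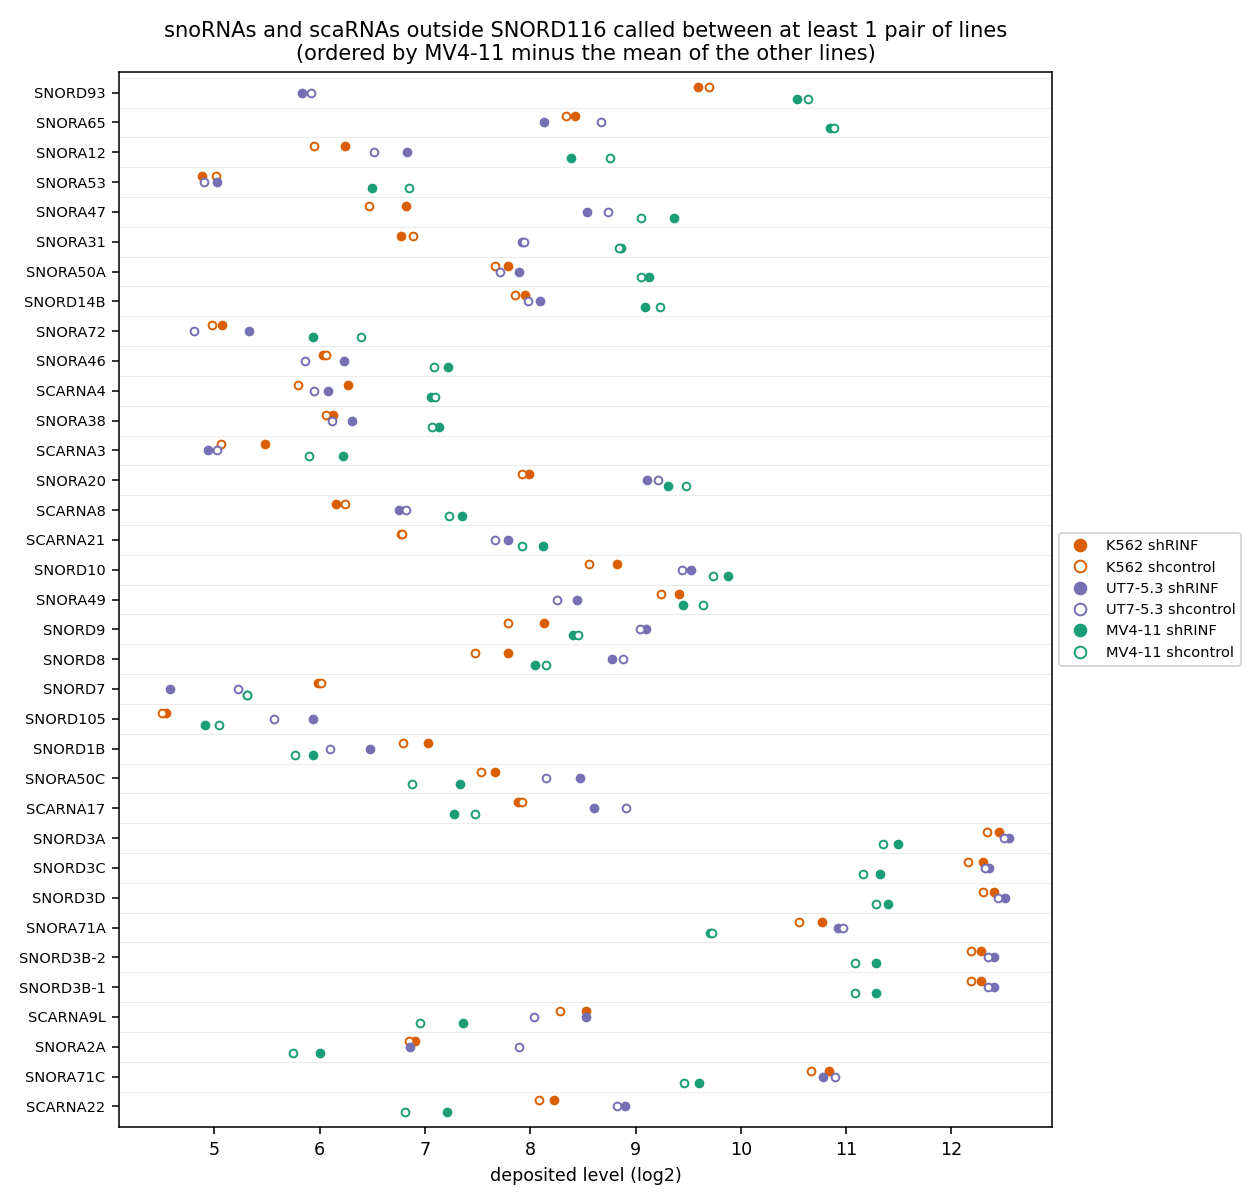
Deposited log2 level of the 35 snoRNA and scaRNA symbols outside SNORD116 that were called in at least 1 pair of lines, 1 row each, with filled points for shRINF and open points for shcontrol arrays and a colour per line. The top rows are highest in MV4-11, led by SNORD93 (5.83 and 5.92 in UT7-5.3, 10.53 and 10.64 in MV4-11), and the bottom rows are lowest there.

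Members were set beside the genes that contain them where a single feature named the host, which gave 87 pairs over 72 hosts past the level. Across pairs, Pearson's r between the member's and the host's difference was 0.55 for K562 minus UT7-5.3, 0.40 for K562 minus MV4-11 and 0.47 for UT7-5.3 minus MV4-11. With 1 member per host these were 0.54, 0.44 and 0.46 over 72 pairs. They are descriptions across genes measured on the same 6 arrays, and the host in the table was chosen by position without regard to strand. The signs were the same in 70.1%, 59.8% and 72.4% of pairs. Large member differences mostly lacked a large host difference. For K562 against MV4-11, 15 of the 87 members differed by at least 1 unit, and in 2 of these the host did too, namely TPT1 with SNORA31 and CHD3 with SCARNA21. For UT7-5.3 against MV4-11 it was 1 of 14, EP400 with SNORA49, and for K562 against UT7-5.3 it was 0 of 4. Host differences of this size were few over all 87 pairs, at 6, 9 and 3 for the comparisons in this order.

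SNORA49 had 9.41 and 9.24 in K562, 8.44 and 8.25 in UT7-5.3 and 9.45 and 9.64 in MV4-11, and its host EP400, a chromatin remodeller of the TIP60 complex, averaged 8.185, 6.845 and 8.67. Both were low in UT7-5.3, with UT7-5.3 minus MV4-11 differences of -1.2 ± 0.12 for SNORA49 (SE; limma adjusted p = 6.22e-06) and -1.825 ± 0.14 for EP400 (SE; adjusted p = 7.21e-07). The reverse also occurred, as 9 hosts of members differed by at least 1 between UT7-5.3 and MV4-11, with EP400 as the sole one whose member did so too. The kinase gene AAK1, host of SNORA36C, differed by -2.335 while SNORA36C differed by -0.175, and these pairs were picked out after their values were seen.

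**Figure D4:**
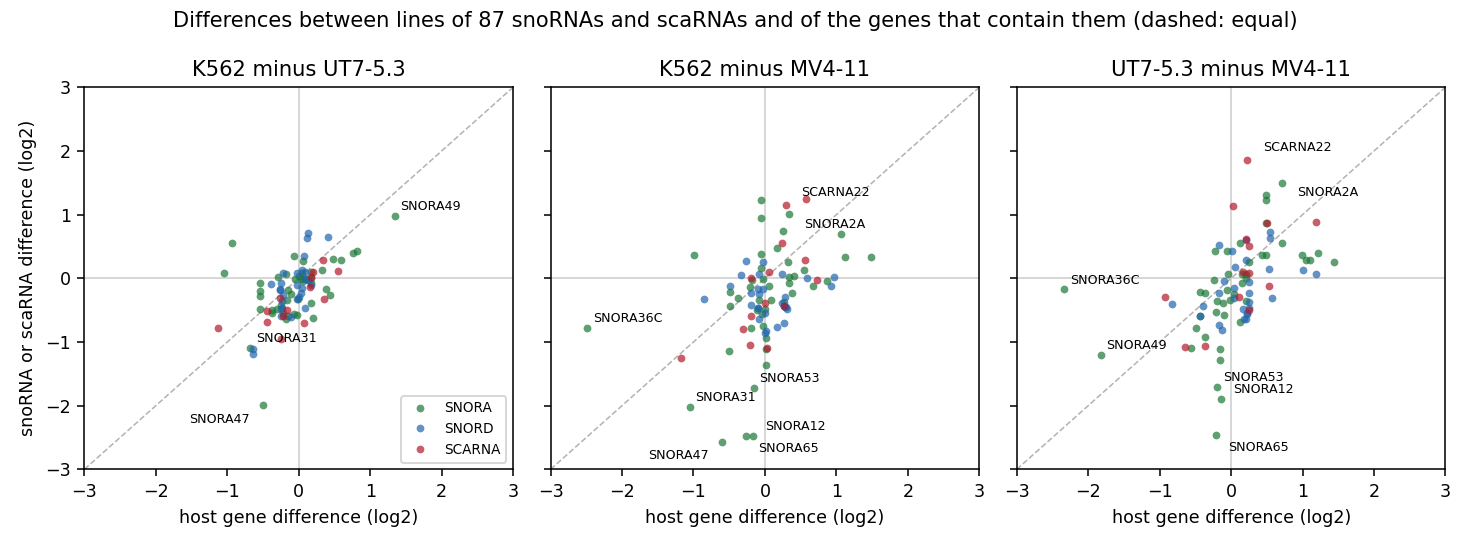
Difference between lines (log2) of 87 snoRNAs and scaRNAs on the vertical axis against that of the containing gene on the horizontal axis, 1 panel per pair of lines, with the dashed line at equal differences. Points such as SNORA65 and SNORA12 lie far down near a host difference of 0, at about -2.48 for K562 minus MV4-11.

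The comparison of shRINF with shcontrol asked whether snoRNA levels moved with the knockdown of CXXC5 in all 3 lines. No member passed limma's adjusted p of 0.05 (0 of 186; 0.0% of all 16215 features), and the smallest adjusted p of a member was 0.775. At an unadjusted p under 0.05, 16 members were higher (background 3.9%) and 1 was lower (background 2.01%). Higher in all 3 lines were 43 members (23.1%), against 13.4% of all features, and lower in all 3 were 5 (2.69%), against 15.2%. The 43 include the 7 features of SNORA38 and the 5 near-identical copies of U3, and each of these sets stands for a single RNA. The median difference was 0.06, against -0.01 over all features. After quantile normalization these were 0.04 and -0.01, and after cyclic loess 0.05 and 0.01. The median was 0.08 for SNORA, 0.04 for SNORD and 0.14 for SCARNA.

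The lines did not contribute alike. In K562, 157 members were higher with shRINF (84.4%; background 52.6%) and 28 lower (15.1%; background 42.8%), with a median difference of 0.14 against 0.01 over all features, and the 3 classes had medians of 0.135, 0.14 and 0.15 (SNORA, SNORD and SCARNA). In UT7-5.3, 112 were higher (60.2%; background 41.5%) and 72 lower (38.7%; background 57.2%), with a median of 0.08 against -0.06, and the scaRNAs had the highest class median, 0.22. In MV4-11, 78 were higher (41.9%; background 48.6%) and 105 lower (56.5%; background 47.7%), with a median of -0.03 against 0, and 70 of 103 SNORD features were lower. These 70 include the 8 features of SNORD117, the 7 of SNORD32B and 15 of SNORD116. Outside SNORD116, 90 of 170 members were lower in MV4-11 (52.9%). The features of SNORA38, SNORD117 and SNORD32B, which repeat single RNAs, were all counted as higher in K562. Without K562 the median across lines was 0.02, without UT7-5.3 0.06 and without MV4-11 0.10, and in that last fit SCARNA15 was called (0.535, limma adjusted p = 0.0295). The spread of single features was narrow in K562, with an SD of 0.104 over all features and 0.149 over members, against 0.258 and 0.244 in UT7-5.3 and 0.180 and 0.191 in MV4-11.

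Differences of at least 0.3 in K562 were seen for 24 members upward (12.9%; background 1.01%) and 2 downward (1.08%; background 0.752%). In UT7-5.3 the counts were 26 (14%; background 13.2%) and 9 (4.84%; background 9.5%), and in MV4-11 13 (6.99%; background 4.07%) and 12 (6.45%; background 3.46%). Each rests on a single pair of arrays and has no test. In K562 the members' median was above that of other features at the same level in every one of 7 bins of mean level, with medians of 0.09 to 0.21 against -0.02 to 0.04. In UT7-5.3 it was above in the 3 bins under a level of 8 (0.12 to 0.145, against -0.15 to 0) and not in the 4 bins from 8 up. There the members had -0.07, 0.14, -0.05 and 0.05, against 0.11, 0.14, 0.14 and 0.08 for other features. The 3 highest bins hold 16, 11 and 13 members.

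Other short RNAs are set beside the members. The 23 snRNA gene features had median differences of 0.20 in K562 (20 of 23 higher), 0.06 in UT7-5.3 (14 higher) and -0.05 in MV4-11 (8 higher), and the 439 microRNA gene features had -0.03, -0.16 and -0.04. The 29 SNORD113 and SNORD114 features had medians of 0.03, 0.83 and 0.06. lncRNA genes had 0, -0.12 and 0. RNA was purified by Trizol and a column, and the recovery of short RNA was not measured, so its part in these shifts was not tested.

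SCARNA9L had the largest difference among members when each is judged by its least-shifted line. It stood at 8.53, 8.53 and 7.36 on the shRINF arrays of K562, UT7-5.3 and MV4-11, against 8.28, 8.04 and 6.95 on the shcontrol arrays. It was higher in each line, by 0.38 ± 0.12 (mean ± SD of 3 lines; limma adjusted p = 0.775), and the groups overlapped because the lines differ. Its host EIF1AX, a translation initiation factor gene, had differences of 0.03, 0.34 and 0.27. SNORD14E, a U14 copy, was at 7.78, 8.41 and 7.78 with shRINF, against 7.49, 8.11 and 7.57 with shcontrol, a difference of 0.27 ± 0.05 (SD, n = 3; limma adjusted p = 0.775). SNORD1B, SNORD126, SCARNA10 and SNORD119 followed, with mean differences between 0.19 and 0.27. SNORA38 was higher by 0.30 ± 0.11 (SD, n = 3) in the values shared by 2 of its features and by 0.11 on average in those shared by the other 5, so that the haplotype features of this RNA did not give the same size.

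The 5 members lower in all 3 lines were SNORD93, SNORA11B, SCARNA17, SNORD67 and SNORA74A. SCARNA17 had 7.88, 8.61 and 7.28 with shRINF, against 7.92, 8.91 and 7.48 with shcontrol, a difference of -0.18 ± 0.13 (SD, n = 3; limma adjusted p = 0.775). The other 4 had mean differences between -0.12 and -0.09. SNORD93, whose lines stood up to 4.71 apart, differed by -0.10 ± 0.01 (SD, n = 3) between shRINF and shcontrol.

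The largest difference of any member within a line was that of SNORA2A in UT7-5.3, at 6.86 with shRINF against 7.89 with shcontrol (-1.03), while it was 0.06 in K562 and 0.25 in MV4-11. SNORA2B, from the same gene, had 5.95 against 5.30 in UT7-5.3 (0.65), and KANSL2 itself 0.01. The 3 members with the largest upward difference in that line were scaRNAs. SCARNA18 had 6.24 with shRINF against 5.37 with shcontrol, SCARNA15 6.49 against 5.70, and SCARNA2, which has a gene of its own, 8.83 against 8.15. In MV4-11 the SNORD116 family was lower on the shRINF array in 15 of 16 features, with a median of -0.23 and a range of -0.69 to 0.09. SNORD116-1 had the lowest difference there, at 5.30 against 5.99. No second culture tells these apart from the spread between arrays.

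**Figure D5:**
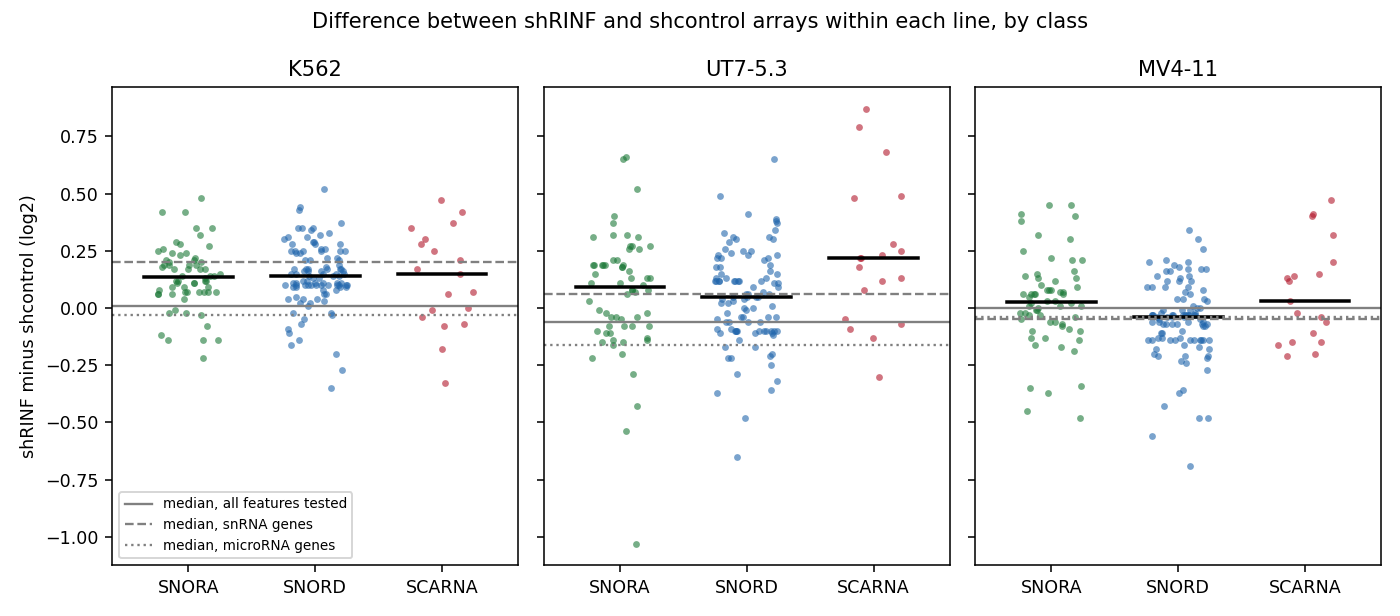
Difference between the shRINF and shcontrol arrays (log2) of each member within each line, by class, with a bar at the class median and grey lines at the medians of all features, snRNA genes and microRNA genes. In K562 the class medians are 0.135 to 0.15 against 0.01 over all features, and in MV4-11 the SNORD median is -0.04.

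Among U3, U13 and U14 features, 8 of 10 had higher values with shRINF in all 3 lines, where 13.4% of all features and 23.1% of members did. Of the 8, 5 are the near-identical U3 copies and count as a single RNA, and the others are SNORD13, SNORD14D and SNORD14E. SNORD3A had 12.45, 12.55 and 11.49 with shRINF against 12.34, 12.50 and 11.35 with shcontrol, and SNORD13 had 13.19, 13.15 and 13.05 against 13.10, 13.11 and 13.04. None passed the test. The 22 members in ribosomal protein genes were all higher in K562 (median 0.15), 16 of 22 were higher in UT7-5.3 (0.13), and 4 of 22 in MV4-11 (-0.05). Members in SNHG genes other than SNHG14 were higher in 11, 6 and 6 of 16 cases, with medians of 0.165, -0.07 and -0.02. Of all members, 84.4%, 60.2% and 41.9% were higher in K562, UT7-5.3 and MV4-11, with medians of 0.14, 0.08 and -0.03. Of all features, 52.6%, 41.5% and 48.6% were higher.

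The proteins that bind, assemble and mature these RNAs were then examined. No gene of these lists passed between shRINF and shcontrol, and the smallest adjusted p was 0.775. Of the box C/D core, fibrillarin (FBL) had 10.54, 10.37 and 10.19 with shRINF against 10.49, 10.36 and 10.13 with shcontrol, and NOP58 had differences of 0.06, 0.26 and 0.01. Of the box H/ACA core, GAR1 had differences of -0.13, 0.22 and 0.10. NOP56 and DKC1 were not named by a single feature. Coilin (COIL), the scaffold protein of the Cajal body, was higher in each line, at 8.48, 8.54 and 8.06 with shRINF against 8.32, 8.04 and 7.78 with shcontrol, a difference of 0.31 ± 0.09 (SE; limma adjusted p = 0.775). It was the 1 of 4 Cajal body factors measured that was higher in all 3 lines, and the median difference of the 4 was -0.01. WRAP53, TOE1 and SART3 were lower with shRINF in UT7-5.3, with differences of -0.13, -0.09 and -0.13. ZNHIT3, an assembly factor of box C/D particles, was higher by 0.14, 0.19 and 0.20, and SNHG8, an lncRNA host of a box H/ACA RNA, by 0.18, 0.21 and 0.26. Higher in all 3 lines were 4 of 11 assembly factors and 4 of 13 listed host genes, against 13.4% of all features. The lists are too short for these counts to be set apart from that share.

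Between lines, some of these genes were lower in MV4-11, while others, such as SHQ1, NUFIP1 and DBR1, had their highest average there. GAR1 averaged 9.025, 8.54 and 7.87 in K562, UT7-5.3 and MV4-11 (K562 minus MV4-11 1.155 ± 0.11, SE; limma adjusted p = 5.03e-06). The assembly ATPase RUVBL2 averaged 9.845, 9.795 and 8.67 (1.175 ± 0.11, SE; adjusted p = 2.50e-06), and TOE1, a deadenylase of Cajal bodies, 8.525, 8.385 and 7.39 (1.135 ± 0.10, SE; adjusted p = 2.62e-06). Of the 3 box C/D core genes measured none was called in any pair of lines, and of the 3 box H/ACA genes GAR1 was the one called. Of all features, 22.7% were called in at least 1 pair. Of 11 assembly factors, 1 was called higher in K562 than in MV4-11 (background 6.91%) and none lower (background 8.25%). In UT7-5.3 against MV4-11, 2 of the 11 were called higher, RUVBL2 and RPAP3 (background 7.17%), and none lower (background 6.48%). The lists are too short for such counts to be set apart from these shares. Of 9 maturation and decay genes, the cap-binding gene NCBP2 was called, higher in UT7-5.3 than in MV4-11 by 1.005 ± 0.10 (SE; adjusted p = 6.84e-06; background 7.17%). That difference sits at the minimum size of 1.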

How the data were processed

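Total RNA was labelled with a whole-transcript kit and hybridised to 6 Affymetrix arrays, 1 per line and shRNA. The deposited values are log2 levels per feature. The authors summarised them with RMA, using Affymetrix Expression Console, as the submitters' processing notes record. Software versions and a genome build were not given in the sources used here. Base 2 was taken from the method and the range of values. RMA brings arrays to a common distribution, so a shift shared by most transcripts is removed. There are no detection calls, so signals around 4 or lower were treated as floor. Platform annotation gave 23781 features a single symbol, 1543 several (109 with a snoRNA or scaRNA among them, not used) and 42204 none. Hosts were the genes that contain a symbol in the RefSeq table, compared without strand. No coordinates of array features are given.

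Features with 1 symbol at log2 5 or more on at least 2 arrays (16215) were fitted with limma 3.58.1 (R 4.3.3; lmFit, eBayes; additive terms for cell line and shRNA, 2 residual and 9.1 prior degrees of freedom), with Benjamini-Hochberg adjustment over all of them. Calls needed an adjusted p under 0.05, and between lines a difference of at least 1. The 6 arrays limit the precision, p-values measure the spread between these arrays only, and the numbers of a line's arrays pair them because they are the same cell line (their deviations from the group means correlated at 0.969 for K562, 0.93 for UT7-5.3 and 0.966 for MV4-11). Procedures were tested on simulated data. Members and lists were chosen with earlier results of these data known. Text names CXXC5, up to 8 members per direction and comparison, by size among those called or, for shRINF, by the smallest within-line difference, the groups and lists fixed with the design, class extremes, features at the level edge and hosts. SNORD116 filled the places for members higher in MV4-11, so the other such members named, the extremes of a line and AAK1 with SNORA36C were picked after their values were seen. Alternatives covered filters, feature choice, 3 scalings, the variance model, the block, thresholds and left-out arrays, with 2 added after the data were examined (without SNORD116, and 1 feature per set of identical values). The start sequence of 1 further host is not reported here.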

Additional observations from a re-analysis of the deposited data

Results flagged for a closer look

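The SNORD116 family had median differences of opposite sign in MV4-11 and in the other lines between shRINF and shcontrol. The median difference over 16 features was 0.11 for K562, 0.125 for UT7-5.3 and -0.23 for MV4-11. The difference between lines was not tested, and in K562 and UT7-5.3 all features of the family lay at 4.10 or lower, near the floor.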

How the results depend on the processing

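The fit without the replicate block, the cell line, called 0 members for shRINF. With the shRNA term left out between lines, the fit called 8, 43 and 39, as with it. For shRINF the fit without the block leaves the differences between lines in its spread, so its 0 cannot show whether pairing mattered. No result reversed. Without MV4-11 (replicate 3), 1 member, SCARNA15, was called higher with shRINF (0.535, adjusted p = 0.0295), and leaving out each line gave 0 to 1. Leaving out each array gave 7 to 9 calls for K562 against UT7-5.3, 33 to 45 for K562 against MV4-11 and 38 to 40 for UT7-5.3 against MV4-11. For K562 against MV4-11, 40 were called after median centring, 35 after quantile normalization and 41 after cyclic loess. After the same scalings the calls were 9, 8 and 9 for K562 against UT7-5.3 and 39, 40 and 39 for UT7-5.3 against MV4-11. With no fold minimum the 3 counts were 67, 120 and 120, and at 2 log2 units 1, 20 and 18. With members at 5 or more on all 6 arrays they were 6, 25 and 20, and without SNORD116 8, 27 and 23. The median for K562 against UT7-5.3 was -0.185 with members on all 6 arrays, -0.11 at gene level, -0.1 after median centring, -0.204 after quantile normalization, -0.2046 after cyclic loess, -0.1775 without SNORD116 and -0.115 with 1 feature per set of identical values. For UT7-5.3 against MV4-11 it was -0.0825 with members on all 6 arrays, -0.1554 after quantile normalization and -0.1225 without SNORD116. For shRINF it was 0.04 after quantile normalization and 0.0487 after cyclic loess, against 0.0633 as deposited. Of 805 values of named members and CXXC5 under these settings, 784 kept direction and call and 21 lost the call. Signal near the floor limits SNORD116 in K562 and UT7-5.3 and members near 5.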
